A study of Mus musculus with 4 samples.

Results

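Long intergenic noncoding RNAs (lincRNAs) are spliced or single-exon transcripts that lie between protein-coding genes and carry no long reading frame. The ones described here are the genes that the deposited table labels lincRNA and that were chosen by a summed count of at least 100 over its 4 libraries. That gave 121 of 5559 lincRNA genes in a table of 54532 genes. Of those 5559 genes, 1457 had at least 1 count. Since the summed count selected them, their levels are a description. The sum names no direction between the groups. Just inside the limit lay Gm26711 and Gm47316 with a summed count of 100 and Gm28151 with 102, and just outside lay Gm27010 and Gm20045 with 97 and Eprn with 96.

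The sequenced RNA was that of epidermal stem cells, the keratinocytes from which the epidermis is renewed. They came from C57BL/6 mouse skin and grew in EpiLife medium supplemented with HKGS. The ALP group (2 libraries) received 30 μg/mL ALP for 48 h, read here as the polysaccharide of Arctium lappa L. that the series title names, and the control group (2 libraries) received 0.06% DMSO for 48 h. The labels do not say whether the ALP cultures also received DMSO, and they name no separate cultures or animals behind the libraries, so each p-value reflects the spread among these libraries alone, which may be technical. The letters A and B name the libraries of a group and are not used as pairs. Both B libraries carry the same replicate number in their column names, and what the number stands for is not stated.

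As background, some lincRNAs act in the nucleus. Neat1 builds the paraspeckle, Malat1 sits in nuclear speckles and Xist coats the inactive X chromosome. Others are the host transcripts from which microRNAs or small nucleolar RNAs (snoRNAs) are cut, or bind proteins or microRNAs in the cytoplasm, as Norad does with Pumilio proteins and Cyrano with miR-7. For many, only the act of transcription or the DNA beneath has a known effect, often on a neighbouring gene.

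All 121 lincRNAs passed the low-count filter and were tested. Total counts per library were between 15766244 and 17430345, so that 3 counts correspond to between 0.172 and 0.19 CPM (counts per 1000000). The lincRNAs together took 0.247% and 0.229% of the counts in ALP replicates A and B against 0.367% and 0.314% in control replicates A and B. Malat1 alone made up between 29.7% and 37.2% of these lincRNA counts. Mitochondrial transcripts moved the same way, at 1.73% and 1.71% of counts in ALP and 2.29% and 2.12% in control. Summed markers of basal and stem keratinocytes (8 of 8 genes detected) reached 37450 and 31140 CPM in ALP and 49930 and 49990 CPM in control. Summed markers of suprabasal, differentiating keratinocytes (Krt1, Krt10, Lor and Flg, all detected) were 813 and 27.8 CPM in ALP against 3259 and 2684 CPM in control. Summed markers of melanocytes (5 of 5 detected) were also lower in both ALP libraries, at 43.95 and 32.1 CPM against 53.1 and 48.96 CPM, as were those of fibroblasts (5 of 6 detected, Lum at 0), at 7.86 and 4.38 CPM against 17.7 and 13.7 CPM. Summed endothelial markers (3 of 3 detected) were higher, at 14.3 and 24.4 CPM against 4.65 and 6.62 CPM. Leukocyte markers (3 of 5 detected, Cd3e and Cd207 at 0) lay between 0.402 and 0.979 CPM, and Merkel cell markers (3 of 3 detected) between 0 and 0.516 CPM. In bulk RNA, fewer cells of a type and less RNA per cell cannot be told apart. The part of these marker shifts in the lincRNA differences was not tested.

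More lincRNAs fell than rose after ALP. By edgeR's quasi-likelihood test with Benjamini-Hochberg adjustment over all 14056 genes tested, 23 of the 121 lincRNAs (19%) fell, 8 (6.61%) rose and 90 did not pass an adjusted p of 0.05. Over all genes tested, 12.1% fell and 17.7% rose. The median log2 fold change of the lincRNAs was -0.419, against -0.003 over all genes tested, and it ranged from -2.32 to 3.75. Of the 121 values 82 were negative and 39 positive. Both ALP libraries lay below both controls in 70 lincRNAs (57.9%) and above them in 24 (19.8%), against 37.5% and 38.1% of all genes tested. Set against the mean of the controls, ALP replicate A had a median log2 difference of -0.301 and ALP replicate B one of -0.423.

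**Figure D1:**
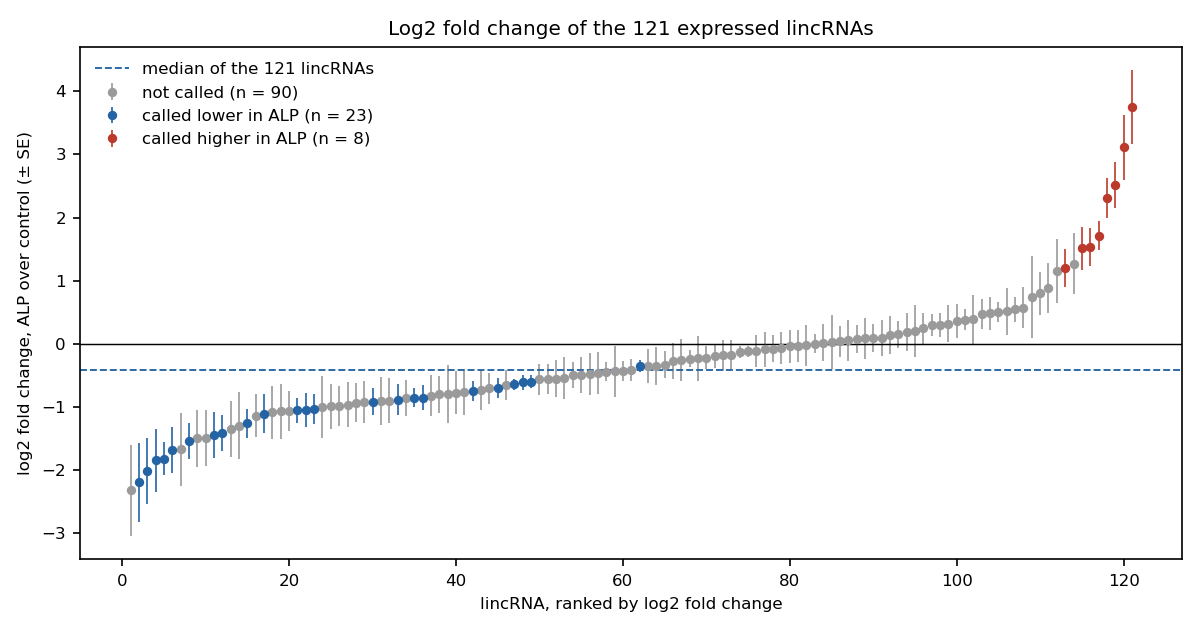
Log2 fold change of ALP over control (vertical axis) for each of the 121 lincRNAs, ranked from lowest to highest (horizontal axis). Bars are standard errors, colours mark the 8 lincRNAs called higher (red), the 23 called lower (blue) and the 90 not called (grey), and the dashed line is the median of -0.419.

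The 8 increases had a median log2 fold change of 2.01 and all reached at least 2-fold, whereas the 23 decreases had a median of -1.05 and 13 of them reached 2-fold. In 19 of the 23 decreases ALP replicate B lay below ALP replicate A, and in 7 of the 8 increases it lay above. No such count over all called genes stands beside these, so they are not read as particular to the lincRNAs. Adjusted p-values of all 31 calls lay between 0.0161 and 0.0499 by edgeR's quasi-likelihood test. Without control replicate B, 2 of the increases and 1 of the decreases were still called by edgeR. Without control replicate A, 0 genes of the whole table were called by edgeR, and 7 lincRNAs higher and 22 lower had an unadjusted p under 0.05. All 31 kept their direction in both fits, which the lack of overlap between the groups in each of them largely fixes in advance.

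**Figure D2:**
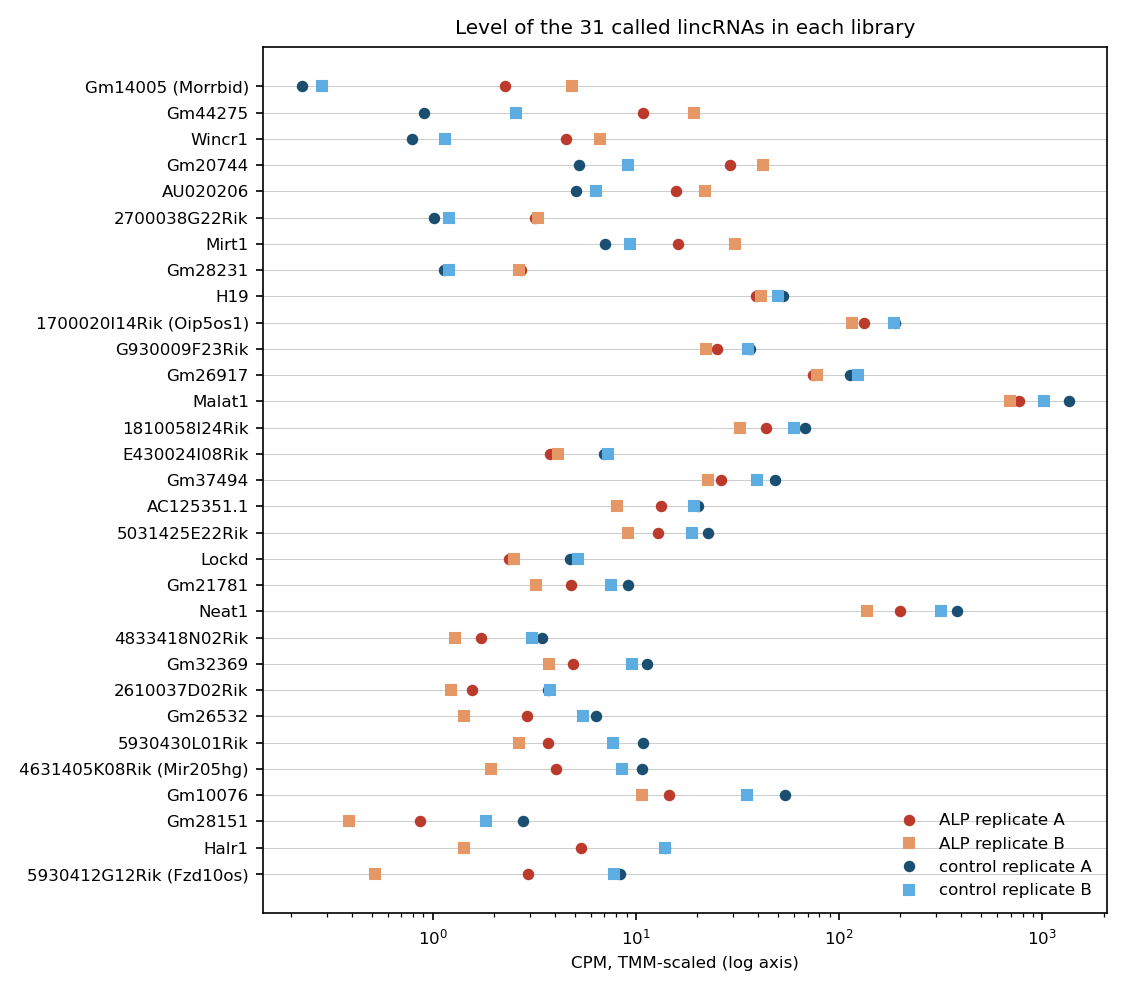
Level of each of the 31 called lincRNAs in CPM (horizontal log axis) in each of the 4 libraries. Red and orange points are the ALP libraries and blue points the controls. The 8 increases are at the top and the 23 decreases below, and in none of the 31 do the groups overlap.

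Other classes of noncoding transcript in the same table, taken at the same summed count, also had negative medians. The median log2 fold change was -0.201 for 84 antisense genes, -0.217 for 82 processed transcripts, -0.26 for 84 genes of the class TEC, which awaits experimental evidence, and -0.117 for 376 processed pseudogenes. For 11252 protein-coding genes it was 0.025. Called lower were 5.95% of the antisense genes, 11% of the processed transcripts, 10.7% of the TEC genes, 5.59% of the processed pseudogenes and 13.3% of the protein-coding genes, beside 19% of the lincRNAs. Called higher were 3.57% of the antisense genes, 9.76% of the processed transcripts, 3.57% of the TEC genes and 5.05% of the processed pseudogenes, beside 6.61% of the lincRNAs and 21% of the protein-coding genes. Each of these noncoding classes thus had a lower share of increases than the protein-coding genes. Their median levels were also lower, between 2.46 and 5.33 CPM against 35.6 CPM. Over all tested genes, 8.52% were called higher at a summed count from 100 to under 200 and 23.6% at 1000 or more. The part of abundance in these shares was not tested. No test of these shares against each other was made.

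**Figure D3:**
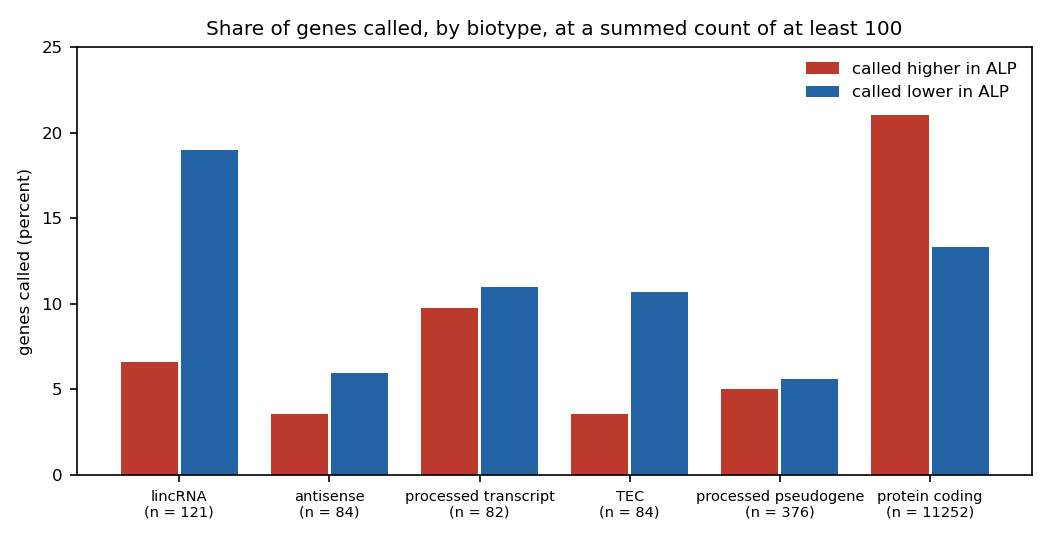
Percent of genes called higher (red) and lower (blue) in ALP for 6 gene classes, with the number of genes at a summed count of at least 100 under each class. The lower share is 19% for lincRNAs and 13.3% for protein-coding genes, and the higher share is 6.61% and 21%.

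Levels per transcript length were low for most members. The mean FPKM (counts per kilobase of gene length and 1000000 counts) over the 4 libraries had a median of 1.45 across the 121 lincRNAs and 7.62 across protein-coding genes at the same summed count. It was at least 1 in 80 lincRNAs and at least 10 in 15. The 6 highest were Malat1 at 137 FPKM, Gm10076 at 75.1, Norad (2900097C17Rik) at 42.3, Gm26917 at 29.2, Xist at 22.5 and Tmem250-ps at 19.1. Of 21 with a summed count of at least 1000, 11 fell and 2 rose, while 14.3% of all tested genes at that count fell and 23.6% rose. Of 48 from 200 to under 1000, 9 fell and 3 rose, beside 11.2% and 12.5% of all tested genes in that range. Of 52 from 100 to under 200, 3 fell and 3 rose, beside 8.03% and 8.52%.

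The largest increase was that of a lincRNA nearly silent in control. Gm14005, known as Morrbid (chr2:128178319-128502765, GRCm38), is known in short-lived myeloid cells for repressing the neighbouring death gene Bcl2l11. It measured 2.26 and 4.85 CPM in ALP replicates A and B against 0.227 and 0.286 CPM in control replicates A and B, where it had 4 and 5 counts. It rose by 3.75 ± 0.58 in log2 units (± SE from 2 libraries per group, as for all fold changes given here; adjusted p = 0.0163 by edgeR's quasi-likelihood test). Every ALP value was above every control value, and the gap was wider between the ALP libraries than between the controls. Bcl2l11 itself measured 17.5 and 15.3 CPM in ALP and 18.5 and 19.8 CPM in control, and its log2 difference of -0.22 ± 0.14 missed the threshold (adjusted p = 0.265 by edgeR's quasi-likelihood test).

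Wincr1 (chr4:89050308-89084614), named as a WNT-induced noncoding RNA, measured 4.51 and 6.66 CPM in ALP against 0.793 and 1.14 CPM in control and rose by 2.52 ± 0.36 (adjusted p = 0.0162, edgeR). Gm20744 (chr7:82070387-82081758) was the most abundant of the 8 increases in CPM. It measured 29.2 and 42.2 CPM in ALP against 5.27 and 9.14 CPM in control and rose by 2.31 ± 0.32 (adjusted p = 0.0162, edgeR). Mirt1 (chr19:53441212-53464796), first described as a myocardial infarction associated transcript, measured 16.1 and 30.6 CPM in ALP against 7.02 and 9.31 CPM in control. It rose by 1.51 ± 0.34 (adjusted p = 0.0288, edgeR), by 1.90 without ALP replicate A and by 0.99 without ALP replicate B. Its exons overlap those of a gene on the opposite strand over 11.8% of their length, and the sources used here do not say how strand was treated in counting.

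Gm44275 (chr6:135312155-135319561) measured 10.8 and 19.4 CPM in ALP against 0.906 and 2.57 CPM in control and rose by 3.11 ± 0.52 (adjusted p = 0.017, edgeR). On the log scale its controls lay farther apart than its ALP libraries, and the fitted increase was 2.54 with control replicate A left out and 4.05 with control replicate B left out. AU020206 (chr7:75769038-75782099), whose longest annotated transcript has a single exon, measured 15.7 and 21.8 CPM in ALP against 5.04 and 6.34 CPM in control. It rose by 1.72 ± 0.23, with the smallest adjusted p of the 121 (0.0161, edgeR). The remaining increases were low in abundance. 2700038G22Rik measured 3.18 and 3.30 CPM in ALP against 1.02 and 1.20 CPM in control and rose by 1.54 ± 0.30. Gm28231 measured 2.72 and 2.65 CPM against 1.13 and 1.20 CPM and rose by 1.20 ± 0.30, a call that DESeq2's Wald test did not make (adjusted p = 0.105).

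Promoters are shown for 3 of the 8 increased lincRNAs. Those of AU020206, 2700038G22Rik and Gm28231 are not shown and hold no match to the AP-1 motif TGANTCA. Of the 3 shown, Mirt1 and Gm20744 hold a match to it. Capitals mark the match. Each window runs from 250 bases before to 50 bases after the RefSeq start in GRCm38.p6, on the gene's own strand. Mirt1 lies on the minus strand at chr19:53464747-53465046, with the first base of the match at position -140 from the start. Gm20744 lies on the plus strand at chr7:82070137-82070436, with the match at position -160. Wincr1 lies on the plus strand at chr4:89050057-89050356 and holds none.
Mirt1: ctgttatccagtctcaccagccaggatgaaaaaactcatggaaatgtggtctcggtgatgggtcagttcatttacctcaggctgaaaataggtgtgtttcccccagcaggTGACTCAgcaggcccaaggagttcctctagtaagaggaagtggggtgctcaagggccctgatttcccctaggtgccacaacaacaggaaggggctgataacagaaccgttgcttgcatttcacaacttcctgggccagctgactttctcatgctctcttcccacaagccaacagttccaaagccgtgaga
Gm20744: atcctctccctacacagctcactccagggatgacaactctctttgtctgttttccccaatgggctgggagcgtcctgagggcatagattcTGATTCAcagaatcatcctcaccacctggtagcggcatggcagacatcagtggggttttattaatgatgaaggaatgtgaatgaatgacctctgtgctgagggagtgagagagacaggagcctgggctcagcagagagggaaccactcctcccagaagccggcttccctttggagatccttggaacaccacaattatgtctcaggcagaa
Wincr1: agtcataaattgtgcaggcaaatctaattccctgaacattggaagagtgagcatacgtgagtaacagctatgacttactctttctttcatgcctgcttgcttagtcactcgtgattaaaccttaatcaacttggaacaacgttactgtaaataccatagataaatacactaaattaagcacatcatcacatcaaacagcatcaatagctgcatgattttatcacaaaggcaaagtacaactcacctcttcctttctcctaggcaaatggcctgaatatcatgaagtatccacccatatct
RefSeq gave a promoter within 1000 bases of the table's start for 59 of the 121 lincRNAs. On either strand, TGANTCA was found in 2 of 6 promoters of increased lincRNAs, 0 of 10 of decreased ones and 3 of 43 of those not called, and in 7.8% of all 32851 RefSeq promoters. The ETS motif CCGGAAG was found in 0 of 6, 1 of 10 and 14 of 43, and in 8.9% of all promoters. The RefSeq promoter of Morrbid (Gm14005) lies 73414 bases from the table's start and is not in these counts. It holds 1 match to each of the 2 motifs. These matches describe letters in a window and show no binding.

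The nuclear RNAs Neat1 and Malat1, which lie next to each other on chromosome 19, both fell. Neat1 (chr19:5824708-5845478) measured 199.8 and 137 CPM in ALP against 379.9 and 318 CPM in control and fell by 1.05 ± 0.20 (adjusted p = 0.0206, edgeR's quasi-likelihood test). Malat1 (chr19:5795690-5802672) measured 772 and 693 CPM in ALP against 1347 and 1020.2 CPM in control and fell by 0.69 ± 0.16 (adjusted p = 0.0288, edgeR). In both genes the lower control lay above the higher ALP library. Xist (chrX:103460366-103483254), also retained in the nucleus, measured 383 and 392 CPM in ALP against 443 and 402 CPM in control, and its log2 difference of -0.13 ± 0.09 missed the threshold (adjusted p = 0.331, edgeR). Its exons overlap those of Tsix on the opposite strand over 12.6% of their length. Ftx, a noncoding activator of the Xist locus, measured 5.50 and 6.72 CPM in ALP and 5.66 and 3.83 CPM in control and did not pass either (0.36 ± 0.27).

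Gm26917 (chr17:39843013-39846341) measured 74.1 and 77.5 CPM in ALP against 113 and 123 CPM in control and fell by 0.64 ± 0.09 (adjusted p = 0.0162, edgeR). Its annotation ends 12 bases before CT010467.1, an rRNA gene of the same table, and the pair lies over a 45S pre-ribosomal RNA unit, so reads of ribosomal RNA precursors can count toward it. CT010467.1 measured 635 and 627 CPM in ALP and 804 and 681 CPM in control, and its log2 difference of -0.23 ± 0.11 missed the threshold (adjusted p = 0.155, edgeR). The part of ribosomal RNA in the Gm26917 difference was not tested.

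In the list of nuclear body, chromatin and X-inactivation RNAs, 3 of 5 lincRNA members matched by the table's symbols fell (Gm26917, Malat1 and Neat1). Of these 5, 0 rose, and the median log2 fold change was -0.641. The list also names Oip5os1, which the table holds as 1700020I14Rik. It fell as well, as described below, and is not in that count or median. The shares over all genes tested, 12.1% lower and 17.7% higher, stand beside this count and those of the lists below. Of 6 tested genes of the same list that are outside the 121, 2 fell and 0 rose. These were Firre, which organises nuclear chromosome contacts, by 0.54 ± 0.13 from 71.9 and 67.3 CPM in control to 53.2 and 42.5 CPM in ALP, and Tug1, by 0.37 ± 0.09 from 166 and 153 CPM to 123.2 and 123.2 CPM.

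Host genes of snoRNAs, whose introns carry the guides for modifying ribosomal RNA, did not pass among the lincRNAs with all libraries. The 5 members (Snhg6, Snhg12, Snhg18, Snhg20 and Epb41l4aos) missed the threshold by edgeR and by DESeq2's Wald test, and their median log2 fold change was -0.035. Snhg6 measured 18.1 and 17.6 CPM in ALP and 19.3 and 16.2 CPM in control, a log2 difference of 0.01 ± 0.15. Snhg12 had the widest difference of the 5, at 7.12 and 8.34 CPM in ALP and 13.5 and 9.25 CPM in control (-0.56 ± 0.24, adjusted p = 0.125 by edgeR's quasi-likelihood test). It passed without ALP replicate B (-0.67, adjusted p = 0.0463, edgeR), and its difference was -0.27 without control replicate A. Snhg18, Snhg20 and Epb41l4aos had log2 differences of -0.04 ± 0.26, 0.14 ± 0.30 and -0.08 ± 0.21. Of 11 tested snoRNA hosts that the table puts in another class, 2 rose and 1 fell. Snhg17 rose by 0.81 ± 0.14, Snhg15 rose by 0.84 ± 0.19 and Snhg8 fell by 0.78 ± 0.22, with adjusted p-values of 0.0184, 0.0287 and 0.0499 (edgeR).

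**Figure D4:**
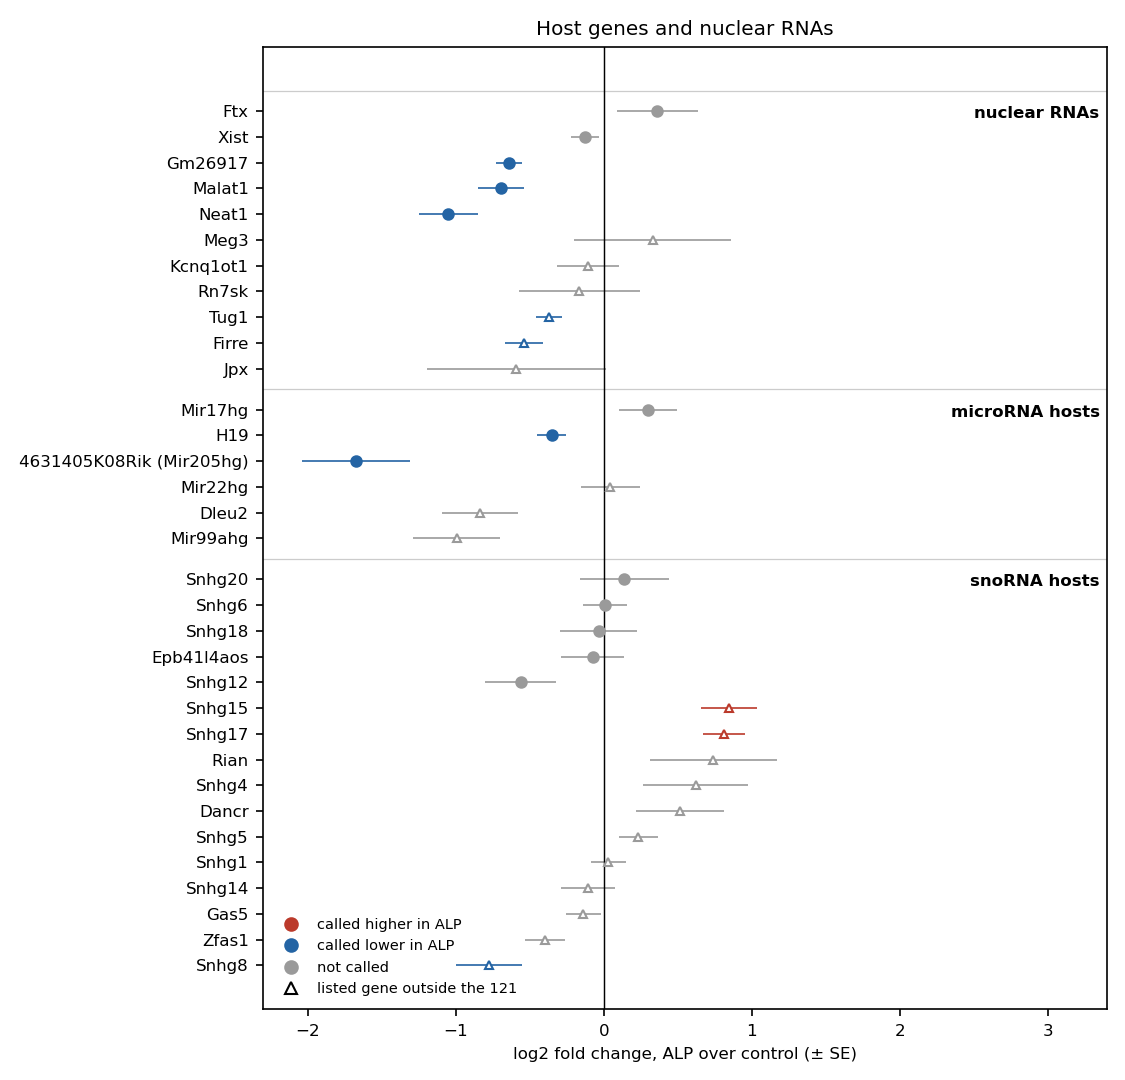
Log2 fold change of ALP over control (horizontal axis, bars are standard errors) for listed nuclear RNAs, microRNA hosts and snoRNA hosts. Filled circles are members of the 121 lincRNAs and open triangles are listed genes outside them. Oip5os1, listed under a symbol that the table does not use, is not shown. Neat1, Malat1, Gm26917, Mir205hg and H19 are called lower, and the 5 snoRNA hosts among the lincRNAs are not called.

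Of the 121 lincRNAs, 9 hold a RefSeq microRNA, and of these 2 fell and 0 rose. In the list of microRNA host genes, 2 of 3 lincRNA members fell (Mir205hg and H19), 0 rose, and 0 of 3 other tested hosts were called. That list also named Mirt1, which holds no RefSeq microRNA and is described above. Mature microRNAs of 5 of the hosts are shown, 1 arm of each hairpin and for Mir17hg the pairs that share a seed. The seed (bases 2 to 8), which pairs with target messages, is in capitals.
mmu-miR-205-5p: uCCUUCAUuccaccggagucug
mmu-miR-675-5p: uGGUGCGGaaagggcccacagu
mmu-miR-31-5p: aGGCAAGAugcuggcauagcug
mmu-let-7d-5p: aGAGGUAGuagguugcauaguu
mmu-miR-17-5p: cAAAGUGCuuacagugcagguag
mmu-miR-20a-5p: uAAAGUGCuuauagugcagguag
mmu-miR-19a-3p: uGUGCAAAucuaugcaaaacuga
mmu-miR-19b-3p: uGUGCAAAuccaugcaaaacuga
In Mir17hg the miR-17-5p and miR-20a-5p sequences share the seed AAAGUGC, and miR-19a-3p and miR-19b-3p share GUGCAAA. The hairpin genes of all these microRNAs had at most 1 count over the 4 libraries, so the values below are those of the host transcripts and mature microRNAs were not measured.

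Mir205hg (4631405K08Rik, chr1:193507238-193510174) hosts miR-205, a microRNA of epidermal progenitors. The host measured 4.05 and 1.94 CPM in ALP against 10.7 and 8.57 CPM in control and fell by 1.67 ± 0.36 (adjusted p = 0.0272, edgeR's quasi-likelihood test). The decrease was 1.24 without ALP replicate B, the lower of the ALP libraries. H19 (chr7:142575529-142578143), the imprinted host of miR-675, had the smallest decrease of the 23. It measured 39.2 and 41.2 CPM in ALP against 52.9 and 49.8 CPM in control and fell by 0.35 ± 0.10 (adjusted p = 0.0448, edgeR), and the call was lost by DESeq2's Wald test (adjusted p = 0.0875) and without the low-count filter (adjusted p = 0.0724, edgeR). Mir17hg, host of the miR-17 to miR-92a cluster that is known for promoting growth, measured 6.13 and 6.40 CPM in ALP and 5.21 and 4.97 CPM in control. The groups did not overlap, but the log2 difference of 0.30 ± 0.20 did not pass (adjusted p = 0.282, edgeR). The miR-31 host AL805899.1 measured 6.48 and 8.02 CPM in ALP and 6.12 and 6.91 CPM in control (0.15 ± 0.21), and the let-7d host 6720427I07Rik 1.04 and 1.03 CPM against 1.81 and 2.11 CPM (-0.91 ± 0.34). Neither of them passed.

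Lists of imprinted and of growth-related noncoding RNAs held few calls. H19 was the 1 lincRNA member of the imprinted list, and 0 of 7 other tested genes of that list were called in either direction. The list for p53, growth and genome stability had 4 lincRNA members matched by the table's symbols (Norad, Mir17hg, Lncenc1 and Epb41l4aos). Of these, 0 were called, with a median log2 fold change of -0.095. The list also names Morrbid, which the table holds as Gm14005 and which rose, as described above. Gm14005 is not in that count or median. Norad (chr2:156388065-156392979) measured 204 and 196 CPM in ALP and 224 and 208 CPM in control and did not pass (-0.11 ± 0.09, adjusted p = 0.351, edgeR's quasi-likelihood test). A near-identical copy, Gm7292, matches 51.6% of its transcript, so its count is uncertain. Of 4 other tested genes of the growth-related list 1 rose and 2 fell. The 2 were Tug1, described above, and Gm20219, which the table labels protein-coding. Gm20219 fell by 1.28 ± 0.35 (adjusted p = 0.045, edgeR). The lincRNA Pvt1, which lies beside Myc and was below the summed count of 100, rose by 1.45 ± 0.40 (adjusted p = 0.0451, edgeR), but not by DESeq2's Wald test (adjusted p = 0.129).

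The largest decreases came with wide gaps between the ALP libraries. Fzd10os (5930412G12Rik, chr5:128579106-128600693), which starts 151 bases from the Wnt receptor gene Fzd10 on the opposite strand, measured 2.95 and 0.517 CPM in ALP against 8.38 and 7.77 CPM in control. It fell by 2.19 ± 0.63 (adjusted p = 0.0499, edgeR's quasi-likelihood test). The decrease was 1.44 without ALP replicate B and 3.95 without ALP replicate A. Halr1 (chr6:52102949-52113684), also called Haunt and known from embryonic stem cells, measured 5.38 and 1.42 CPM in ALP against 13.8 and 13.9 CPM in control. It fell by 2.01 ± 0.52 (adjusted p = 0.0401, edgeR). Without ALP replicate B it fell by 1.35, and without ALP replicate A it fell by 3.28. In both genes the controls lay close together and ALP replicate B was the lowest library, as it was for the summed suprabasal markers, and the part of those cells in these decreases was not tested.

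The promoters of Mir205hg and Halr1 are shown for comparison with those of the increased lincRNAs. The first lies on the minus strand at chr1:193510161-193510460 and the second on the plus strand at chr6:52102699-52102998, both in GRCm38.p6 from RefSeq. Neither held a match, on either strand, to the AP-1, ETS, E-box, cyclic AMP response or TATA motif.
Mir205hg: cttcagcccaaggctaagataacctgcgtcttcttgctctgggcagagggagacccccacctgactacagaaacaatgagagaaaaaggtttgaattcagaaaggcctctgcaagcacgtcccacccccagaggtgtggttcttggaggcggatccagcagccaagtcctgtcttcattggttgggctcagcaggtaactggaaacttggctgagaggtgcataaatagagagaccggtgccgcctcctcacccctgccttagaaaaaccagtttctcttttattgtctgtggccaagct
Halr1: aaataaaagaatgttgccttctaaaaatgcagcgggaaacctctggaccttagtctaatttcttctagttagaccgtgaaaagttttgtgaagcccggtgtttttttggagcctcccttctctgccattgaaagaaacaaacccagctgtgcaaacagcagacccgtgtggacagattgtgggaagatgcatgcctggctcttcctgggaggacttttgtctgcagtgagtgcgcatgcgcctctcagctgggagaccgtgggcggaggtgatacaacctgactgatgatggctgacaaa
The E-box CACGTG was found in 3 of the 59 matched lincRNA promoters (5.1%) and in 7.2% of all RefSeq promoters, and the TATA motif TATAAA in 6 (10.2%) and 13.6%. The cyclic AMP response element TGACGTCA was found in 4 (6.8%) and 1.8%.

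Further decreases were more even between libraries. Gm32369 (chr12:70675847-70681850) measured 4.92 and 3.75 CPM in ALP against 11.3 and 9.54 CPM in control and fell by 1.26 ± 0.22 (adjusted p = 0.0189, edgeR's quasi-likelihood test). 2610037D02Rik measured 1.56 and 1.23 CPM against 3.68 and 3.77 CPM and fell by 1.41 ± 0.29, and 5930430L01Rik measured 3.70 and 2.65 CPM against 10.9 and 7.71 CPM and fell by 1.54 ± 0.29. In each of these genes both ALP libraries lay below both controls.

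Oip5os1 (1700020I14Rik, chr2:119594297-119607502), known as Cyrano, binds miR-7 and promotes its decay. It measured 133 and 115 CPM in ALP against 188 and 187 CPM in control and fell by 0.60 ± 0.10 (adjusted p = 0.0177, edgeR). Gm26532, whose annotation begins at the end of the Mir24-2 hairpin on chromosome 8, measured 2.89 and 1.42 CPM in ALP against 6.34 and 5.48 CPM in control and fell by 1.44 ± 0.37. Gm28151, with only 102 counts in all, measured 0.868 and 0.388 CPM against 2.77 and 1.83 CPM and fell by 1.84 ± 0.49. The uncharacterised Gm21781, AC125351.1, E430024I08Rik and G930009F23Rik fell by 1.05, 0.88, 0.85 and 0.61. The decrease of AC125351.1 was 0.56 without ALP replicate B, and that of E430024I08Rik was not called by DESeq2's Wald test (adjusted p = 0.0568).

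Some members are not plain lincRNAs in RefSeq. Of the 121, RefSeq held a record for 82, of which 70 are noncoding, 10 protein-coding and 2 pseudogenes. The 70 noncoding ones had a median log2 fold change of -0.17, with 7 called higher and 15 lower. Among the protein-coding ones, 2 fell and 0 rose. 1810058I24Rik, which encodes the mitochondrial micropeptide Stmp1, measured 43.5 and 32.6 CPM in ALP against 67.7 and 60.1 CPM in control and fell by 0.75 ± 0.16 (adjusted p = 0.0263, edgeR's quasi-likelihood test). Gm37494 measured 26.1 and 22.5 CPM against 48.1 and 39.5 CPM and fell by 0.85 ± 0.15 (adjusted p = 0.0184, edgeR). Gm10076 is a RefSeq pseudogene, and 99.7% of its sequence matches the ribosomal protein mRNA Rpl41, so its count is uncertain. It measured 14.6 and 10.7 CPM in ALP against 54.0 and 35.3 CPM in control and fell by 1.82 ± 0.26, while Rpl41 measured 769 and 645 CPM against 957 and 949 CPM and fell by 0.43 ± 0.11. Without the 22 lincRNAs whose exons overlap another gene over more than 10% and the 6 with a near-identical copy, 96 remained, with 7 higher, 22 lower and a median of -0.45. Gm26917, toward which ribosomal RNA precursors can count, is still among the 96. Over all genes tested, 17.7% were called higher and 12.1% lower.

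Neighbouring protein-coding genes were read for each lincRNA from the nearest tested start site. Within 50 kb there were 79 pairs, each with its own neighbour. The lincRNA and its neighbour had the same sign in 48 of the 79 pairs, with 32 pairs both negative and 16 both positive. Of these lincRNAs 57 had a negative value and of the neighbours 38. Spearman's rho across the 79 pairs was 0.36, over values from the same 4 libraries. Of 17 called lincRNAs in these pairs, 5 had a called neighbour, 4 in the same direction and 1 in the opposite one. The share of called genes over all genes tested was 29.8%.

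**Figure D5:**
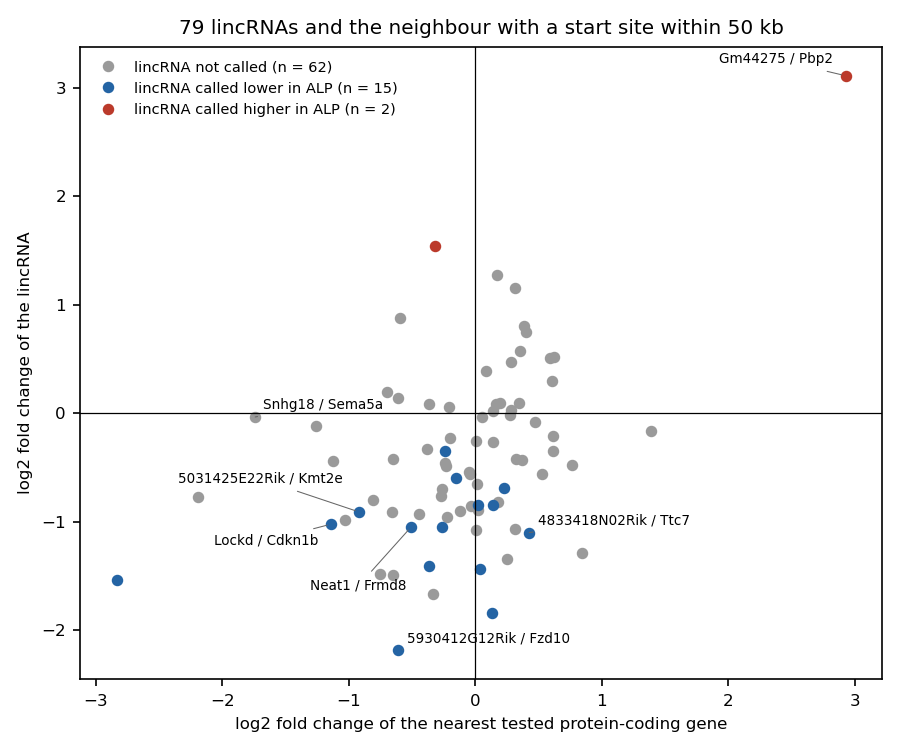
Log2 fold change of the lincRNA (vertical axis) against that of the nearest tested protein-coding gene within 50 kb (horizontal axis) for 79 pairs. Labelled are the 5 pairs in which both are called and the pairs Fzd10os (5930412G12Rik) with Fzd10 and Snhg18 with Sema5a. The same sign is seen in 48 pairs.

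Of the 8 increased lincRNAs, 7 had a tested neighbour within 100 kb, and 3 of these neighbours also rose. Gm44275 starts 9156 bases from Pbp2, a phosphatidylethanolamine-binding protein gene on the same strand, and 42984 bases from Emp1, an epithelial membrane protein gene transcribed away from it. Pbp2 measured 6.25 and 9.89 CPM in ALP against 0.623 and 1.49 CPM in control and rose by 2.93 ± 0.46, and Emp1 measured 779 and 1065 CPM against 256 and 316 CPM and rose by 1.69 ± 0.19 (adjusted p = 0.0163 and 0.0161, edgeR's quasi-likelihood test). Farther away, Dusp5, a nuclear phosphatase gene of ERK 64313 bases from Mirt1, measured 30.1 and 51.1 CPM against 5.78 and 6.63 CPM and rose by 2.71 ± 0.29. Mtap, a methionine salvage gene 86814 bases from Wincr1, measured 113 and 139.8 CPM against 51.1 and 62.0 CPM and rose by 1.16 ± 0.15. In each of these pairs ALP replicate B was the highest library for both genes. The neighbours of the other 4 were not called by edgeR. They were Bnc1 beside Gm20744 (0.32 ± 0.10), Klhl25 beside AU020206 (0.09 ± 0.15), Nt5e beside Gm28231 (0.06 ± 0.09) and Tomm7 beside 2700038G22Rik (-0.32 ± 0.12). Within 100 kb, 10 of 26 called lincRNAs had a called neighbour, 8 in the same direction and 2 in the opposite one. Of all 98 neighbours within that limit 32.7% were called, and of all genes tested 29.8%, so the count of called neighbours is close to the background.

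Of the 23 decreased lincRNAs, 19 had a tested neighbour within 100 kb, of which 5 fell and 2 rose. Among all 98 neighbours within that limit, 16 fell and 16 rose. Lockd, which starts 8691 bases downstream of the start of the cell-cycle inhibitor gene Cdkn1b and is known for overlapping an enhancer of it, measured 2.37 and 2.52 CPM in ALP against 4.76 and 5.20 CPM in control and fell by 1.02 ± 0.24 (adjusted p = 0.0313 by edgeR's quasi-likelihood test, 0.056 by DESeq2's Wald test). Cdkn1b measured 60.8 and 35.7 CPM in ALP against 115 and 98.1 CPM in control and fell by 1.14 ± 0.25. 5031425E22Rik starts 172 bases from Kmt2e, a chromatin regulator gene, on the opposite strand. It measured 12.9 and 9.12 CPM in ALP against 22.7 and 18.8 CPM in control and fell by 0.91 ± 0.21, and Kmt2e measured 118 and 74.8 CPM against 195 and 171 CPM and fell by 0.92 ± 0.22. Frmd8, 29796 bases from Neat1, measured 125 and 95.8 CPM in ALP against 156 and 158 CPM in control and fell by 0.51 ± 0.14. Map3k9, a kinase gene 61123 bases from AC125351.1, measured 48.0 and 42.1 CPM in ALP against 64.8 and 62.7 CPM in control and fell by 0.50 ± 0.10. Fam180a, 73487 bases from 1810058I24Rik, was called lower at very low levels, 0.0579 and 0 CPM in ALP against 0.623 and 1.31 CPM in control (adjusted p = 0.0258, edgeR). The neighbours that rose were Ttc7, described next, and Azin1, which lies 64132 bases from G930009F23Rik and rose by 0.64 ± 0.12.

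Divergent pairs with close start sites did not all move together. Of 20 pairs transcribed in opposite directions within 2000 bases of each other, 14 had the same sign, with a median distance of 149.5 bases. 4833418N02Rik, 72 bases from Ttc7, measured 1.74 and 1.29 CPM in ALP against 3.45 and 3.08 CPM in control and fell by 1.10 ± 0.30 (adjusted p = 0.0459 by edgeR's quasi-likelihood test, 0.107 by DESeq2's Wald test), whereas Ttc7 rose by 0.43 ± 0.09 from 92.7 and 92.6 CPM in control to 119 and 130.1 CPM in ALP. Snhg18, 148 bases from the semaphorin gene Sema5a, measured 2.95 and 3.10 CPM in ALP and 2.83 and 3.37 CPM in control, while Sema5a measured 80.5 and 27.2 CPM against 202 and 158 CPM and fell by 1.74 ± 0.48 (adjusted p = 0.0462, edgeR). DESeq2's Wald test did not call Sema5a (adjusted p = 0.0533). No test of the difference between partners was made. Fzd10, the partner of Fzd10os, measured 27.0 and 17.6 CPM in ALP and 33.7 and 34.4 CPM in control. Its log2 difference of -0.61 ± 0.21 missed the threshold by edgeR (adjusted p = 0.0781) and passed it by DESeq2's Wald test (adjusted p = 0.0436).

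The 5 other lincRNAs closest to a divergent partner were not called by edgeR with all libraries. 6030443J06Rik, 3 bases from the origin recognition gene Orc5, had a log2 difference of 0.52 ± 0.37, and Orc5 rose by 0.62 ± 0.15. A330035P11Rik, 64 bases from Tm9sf2, had -0.43 ± 0.40, and Tm9sf2 rose by 0.37 ± 0.08. Gm13093, 20 bases from the fructose transporter gene Slc2a5, measured 1.62 and 0.646 CPM in ALP and 3.0 and 3.48 CPM in control (-1.49 ± 0.45, adjusted p = 0.057, edgeR's quasi-likelihood test), and Slc2a5 fell by 0.65 ± 0.16. Gm13093 passed by limma-voom (-1.60, adjusted p = 0.0429), without the low-count filter (adjusted p = 0.0421, edgeR) and without ALP replicate A (-2.32, adjusted p = 0.00258, edgeR). 1110019D14Rik, 8 bases from 2610001J05Rik, and Gm16001, 33 bases from Ogfod2, had 0.02 ± 0.29 and -0.56 ± 0.24, and neither partner was called.

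The median length of the longest transcript was 2559 bases for increases, 2429 for decreases and 2375 for those not called, and the median GC content was 47.1%, 47.2% and 46.3%. The longest transcript had a single exon in 10 of the 23 decreases, 1 of the 8 increases and 12 of the 90 not called. Shorter transcripts of the same genes were not counted here.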

How the data were processed

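The submitters' processing notes name HISAT2 2.0.5 and featureCounts 1.5.0-p3. The authors deposited 1 table with a raw, whole-number count per gene and library. The notes name the human build GRCh38, whereas the gene identifiers are mouse ones. All 121 members' identifiers occur in GENCODE M21 and 117 have the same coordinates there, so coordinates are given as GRCm38. The deposited table also holds the authors' mean normalized signal per group, log2 fold changes and p-values, which were not used here. Its 4 further columns of per-library values were not used either, and the FPKM values printed here were computed from the counts, the table's gene length and the library totals.

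The replicate numbers in the column names do not match the sample titles, and columns were therefore assigned to groups only. Counts were fitted over the whole table in R 4.3.3 with edgeR 4.0.16 (TMM scaling, filterByExpr at a count of 10 and a total of 15, the quasi-likelihood F test, two-sided, group alone), with 2 residual degrees of freedom. P-values were adjusted by Benjamini-Hochberg over 14056 genes, with calls at an adjusted p under 0.05. CPM values are TMM-scaled. Each SE is the size of the log2 value over the root of its F statistic. DESeq2 1.42.0 and limma 3.58.1 (voom) served as alternatives, and the code was tested on simulated counts. Copies were searched with BLAST 2.17.0 (at least 97% identity over at least 50% of the transcript), and promoters and microRNAs were taken from RefSeq (GRCm38.p6).

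Named lincRNAs were all members of 5 role lists (snoRNA hosts, microRNA hosts, nuclear RNAs, imprinted RNAs, and p53, growth and genome stability RNAs), the 8 largest called increases and decreases at 1 CPM or more, the next 4 calls each way by p-value, the 6 highest by FPKM, the 6 closest to a divergent start site and 3 on each side of the summed count. Role lists were matched by the table's symbols, so Gm14005 (Morrbid) and 1700020I14Rik (Oip5os1) were left out of the list counts. Other called lincRNAs, hosts and neighbours were named after their values were seen. The members and lists were chosen with earlier results of these data known.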

Additional observations from a re-analysis of the deposited data

How the results depend on the processing

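Called increases numbered 8 with all libraries, 0 to 16 with each library left out in turn (2 without control replicate B), and 4 at a summed count of at least 400. Called decreases numbered 23 and 0 to 41 (1 without control replicate B), and all genes called 4188 and 0 to 7308 (197 without control replicate B). The highest counts came without ALP replicate A and the 0 values without control replicate A. A group left with 1 library is assumed to vary like the other group. The median log2 fold change of the lincRNAs was between -0.459 and -0.293 in these fits. With all libraries and a summed count of at least 50, 12 lincRNAs were called higher and 28 lower. At a summed count of at least 400, 16 were called lower. DESeq2's Wald test called 7 higher and 22 lower, limma-voom and the fit without the low-count filter 8 and 27 each, and DESeq2's size factors in place of TMM 8 and 23. These were not all the same genes. Of the 23 decreases, DESeq2's Wald test kept 19 and the fit without the low-count filter kept 22. All 8 increases stayed positive and all 23 decreases negative in each of these fits. The groups overlapped in none of these genes, so leaving out a library could hardly change their sign. The kept direction therefore adds no support. With a library left out, uncalled values changed sign for 1110019D14Rik (-0.12 to 0.15), Epb41l4aos (-0.23 to 0.07), Snhg18 (-0.17 to 0.10), Snhg20 (-0.16 to 0.40) and Snhg6 (-0.11 to 0.13), and the cause was not tested. Fits without ALP replicate A moved Gm26532 to -2.06, Mir205hg to -2.31 and Sema5a to -2.73, and without ALP replicate B Frmd8 to -0.32 and Kmt2e to -0.61. No paired analysis was possible because the columns of the groups share only 1 replicate number, that of the B libraries. With 2 libraries per group, the 28 lincRNAs under 50 counts in a group are the least precise.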

Other observations

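On chromosome 12, 3 lincRNAs with nested annotation spans were lower in both ALP libraries than in both controls. The same held for 57.9% of all lincRNAs described here and for 37.5% of all genes tested. That order alone therefore does not set this locus apart. Gm24474 (chr12:70650182-70693780, GRCm38) spans both Gm48866 and Gm32369, the called member described above, and the exons of each overlap those of no other gene (0%). Gm32369 lies on the minus strand and the others on the plus strand. Gm24474 measured 3.76 and 3.04 CPM in ALP replicates A and B against 8.32 and 5.14 CPM in control replicates A and B (log2 difference -0.98 ± 0.31), and Gm48866 measured 1.91 and 1.68 CPM against 3.06 and 4.86 CPM (-1.13 ± 0.34). Neither passed edgeR's quasi-likelihood test (adjusted p = 0.0633 and 0.055).

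The lowest fitted value of the 121 was not a call. Gm13219 measured 1.62 and 0.194 CPM in ALP, the latter from 3 counts, against 5.55 and 3.77 CPM in control (log2 difference -2.32 ± 0.72, adjusted p = 0.0601, edgeR). Gm20554 measured 5.38 and 1.94 CPM against 10.7 and 9.996 CPM (-1.49 ± 0.44, adjusted p = 0.0537, edgeR), and Gm16907 23.3 and 11.5 CPM against 37.4 and 35.4 CPM (-1.06 ± 0.32, adjusted p = 0.0551, edgeR). In all 3, as in Fzd10os and Halr1, ALP replicate B was the lowest library.

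The table's lincRNAs Gm42418 and AY036118 had 0 counts in every library, although both lie inside the span of CT010467.1, the rRNA gene beside Gm26917 with 9693 to 14200 counts per library. The sources used here do not say how reads on overlapping genes were counted.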
